A study of Mus musculus with 2 samples.

Results

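The transcripts of the mitochondrial genome were compared between the cerebral cortex of *Rbfox3*-/- mice (KO) and of wild-type mice (WT). The 37 members were all gene models whose symbol starts with mt- and whose deposited position is on the mitochondrial chromosome, out of 37303 gene models in the table. They comprised 13 protein-coding models, 2 ribosomal RNA models and 22 transfer RNA models. The KO library came from mice homozygous for the C57BL/6N-*Rbfox3*tm1a(EUCOMM)Hmgu allele, a germline allele that is not limited to a cell type, and the WT library from littermate controls of matings between heterozygous mice. According to the study's methods the mice were males at P56 and the cortex of the right hemisphere was taken. The labels give the strain as B6, and each genotype was represented by 1 library made from total RNA with a strand-specific kit. With 1 library per genotype a difference has no replicate check and no test, and each value describes these libraries alone. How many mice entered a library is not stated.

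The mitochondrial genome is a small circle of DNA present in many copies per cell. Both of its strands are read into long precursor RNAs, and in most places a tRNA lies between neighbouring rRNAs and mRNAs, so that cutting out the tRNAs also frees the RNAs on either side. The mRNAs receive short poly(A) tails and encode core subunits of respiratory complexes I, III and IV and of ATP synthase (complex V), whereas all subunits of complex II come from nuclear genes. Cortical neurons depend heavily on this machinery for the energy used in synaptic signalling.

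The tight packing of these genes bears on how their reads can be assigned, which is why the sequences of some junctions are shown. Coordinates and sequences are those of GENCODE M21 on GRCm38, the build named by the submitters, and all 37 annotated genes lay inside their deposited positions. Of the 13 mRNA models, 12 lie on the plus strand of the reference and *mt-Nd6* on the minus strand, and 14 of the 22 tRNA models lie on the plus strand. Neighbours overlapped in 9 places. The longest overlap, of 43 bases, was that of *mt-Atp8* and *mt-Atp6*, followed by 14 bases of *mt-Nd5* and *mt-Nd6* on opposite strands and 7 bases of *mt-Nd4l* and *mt-Nd4*. The first and the last of these lie within mRNAs that carry a pair of genes. In the following sequences the shared bases are in capitals, with the start codon of the second gene first among them (chrM:7915-7981 and chrM:10149-10191, plus strand).
*mt-Atp8*/*mt-Atp6*: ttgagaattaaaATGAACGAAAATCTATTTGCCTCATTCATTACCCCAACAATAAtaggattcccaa
*mt-Nd4l*/*mt-Nd4*: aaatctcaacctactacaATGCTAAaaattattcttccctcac

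The tRNAs on either side of the rRNA genes are shown because the first of them was the only tRNA model above 0 in either library. Capitals mark the anticodon, found as the middle of a loop of 7 bases closed by a stem. The tRNAs are those for phenylalanine (*mt-Tf*, chrM:1-68), valine (*mt-Tv*, chrM:1025-1093) and leucine (*mt-Tl1*, chrM:2676-2750), all on the plus strand.
*mt-Tf*: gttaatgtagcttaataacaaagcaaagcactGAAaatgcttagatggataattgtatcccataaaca
*mt-Tv*: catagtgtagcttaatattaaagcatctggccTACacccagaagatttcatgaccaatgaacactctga
*mt-Tl1*: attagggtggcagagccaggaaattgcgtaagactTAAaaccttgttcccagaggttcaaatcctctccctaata

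The labels and the tissue were checked first. *Rbfox3* was at 6.46 FPKM in KO and 57.3 FPKM in WT, where FPKM are fragments scaled to transcript length and to the size of the library. Of the markers of cortical excitatory neurons, *Slc17a7* was at 302 FPKM in KO and 276 FPKM in WT, *Tbr1* at 72.3 FPKM in KO and 65.5 FPKM in WT, and *Neurod6* at 49.1 FPKM in KO and 45.4 FPKM in WT. Some markers of other regions and cell types differed more, with 3 choroid plexus genes at 4.76 FPKM in KO and 226 FPKM in WT, 4 striatal genes at 22.9 FPKM in KO and 64.4 FPKM in WT, and 4 oligodendrocyte genes at 941 FPKM in KO and 1383 FPKM in WT. Endothelial markers summed to 21.8 FPKM in KO and 30.7 FPKM in WT. Most of this difference lay in *Cldn5*, at 5.70 FPKM in KO and 13.4 FPKM in WT, while *Flt1* was at 11.6 and 11.9 FPKM. Astrocyte markers summed to 72.1 FPKM in KO and 86.7 FPKM in WT but did not all go the same way. *Gfap* and *Aqp4* were lower in KO, and *Aldh1l1* was higher, at 14.8 FPKM against 12.1 FPKM in WT. The markers of inhibitory neurons summed to more in KO, at 180 FPKM against 155 FPKM in WT. Microglia, at 58.4 FPKM in KO and 57.6 FPKM in WT, and blood, at 31.8 and 33.3 FPKM, differed little. The part of these tissue differences in the mitochondrial values was not tested. FPKM hold no read counts, so the depth of a library is unknown. Among 1951 gene models with 1 isoform and low values in both libraries, 19.8% of the ratios lay within 0.5% of whole-number steps if 1 fragment was worth 0.888 times as much in KO as in WT, which would make the KO library 1.13 times as deep.

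All 12 mitochondrial mRNAs that were above 0 in both libraries were lower in KO than in WT. Both rRNAs were also lower in KO. The 12 mRNAs together were at 183096 FPKM in KO and 211709 FPKM in WT, a ratio of 0.865. The ratios of single mRNAs ran from 0.799 to 0.960 with a median of 0.848. In tissue RNA, fewer cells or mitochondria and less RNA in each cannot be told apart.

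The log2 ratio of KO over WT was taken with 1 FPKM added to both values, and a gene counted as higher or lower in KO once it differed by 1 or more on that scale, or 2-fold. Only genes averaging 1 FPKM or more over the libraries were counted. Of the 37 members 16 reached this mean, and 1 of them counted as higher in KO (*mt-Tf*) against a background of 0.491% of 13042 genes. In the other direction 1 member counted as lower in KO (*mt-Co1*), against 0.583% of genes. Each of these was listed at 0 in the other library. Of the 14 members above 0 in both libraries, 0 passed a 2-fold difference in either direction, where 0.193% of 12960 such genes were higher and 0.255% lower.

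**Figure D1:**
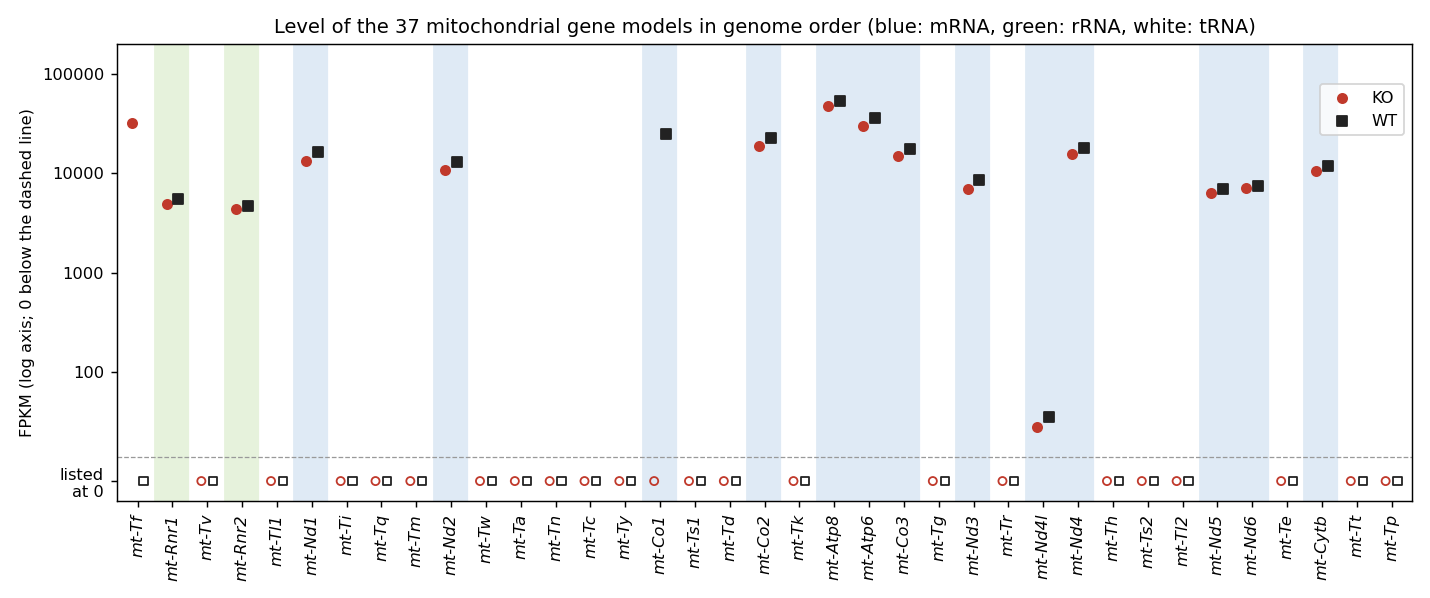
FPKM of the 37 mitochondrial gene models in KO (red circles) and WT (black squares) on a log axis, in the order of the genome, with values listed at 0 drawn as open symbols under the dashed line. The KO value lies below the WT value for 14 of the 14 models above 0 in both libraries, *mt-Nd4l* lies far below its neighbours, and *mt-Tf* and *mt-Co1* are listed at 0 in a single library.

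The genes of the mitochondrial ribosome's RNA lie near the start of the plus strand, with *mt-Tf* before them and *mt-Tv* between them. *mt-Rnr1*, the small-subunit rRNA (ENSMUSG00000064337, chrM:70-1024), was at 4939 FPKM in KO and 5500 FPKM in WT. *mt-Rnr2*, the large-subunit rRNA (ENSMUSG00000064339, chrM:1094-2675), was at 4331 FPKM in KO and 4650 FPKM in WT. The ratios of KO over WT were 0.898 for *mt-Rnr1* and 0.931 for *mt-Rnr2*, and *mt-Rnr1* stood 1.14 times as high as *mt-Rnr2* in KO and 1.18 times as high in WT. As levels per length, both rRNAs were below every mRNA except *mt-Nd4l* in WT, and below every mRNA except *mt-Nd4l* and *mt-Co1* in KO. Whether poly(A) RNA was selected is not given in the sources used here. The order of rRNAs and mRNAs is therefore not read as that of their amounts in the tissue.

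Complex I, the NADH dehydrogenase that passes electrons to ubiquinone, has 7 mitochondrially encoded subunits. *mt-Nd1*, which forms part of the ubiquinone site (ENSMUSG00000064341, chrM:2751-3707), was at 13413 FPKM in KO and 16263 FPKM in WT, lower by 17.5%. *mt-Nd2*, a subunit of the membrane arm (ENSMUSG00000064345, chrM:3914-4951), was at 10852 FPKM in KO and 12893 FPKM in WT, lower by 15.8%. *mt-Nd4*, also of the membrane arm (ENSMUSG00000064363, chrM:10167-11544), was at 15665 FPKM in KO and 17874 FPKM in WT, lower by 12.4%. These are the 3 most abundant complex I mRNAs in each library, and in all of them the KO value was the lower one. *mt-Nd3* (ENSMUSG00000064360, chrM:9459-9806) was at 6908 FPKM in KO and 8643 FPKM in WT, and its difference of 20.1% was the largest of the 12 mRNAs. *mt-Nd5*, which encodes the largest of the subunits and is the longest mRNA model with 1824 bases (ENSMUSG00000064367, chrM:11742-13565), was at 6387 FPKM in KO and 6916 FPKM in WT, lower by 7.65%. *mt-Nd6*, the only mRNA model read from the minus strand (ENSMUSG00000064368, chrM:13552-14070), was at 7175 FPKM in KO and 7474 FPKM in WT. Its ratio of 0.960 was the closest to 1 among the members. *mt-Nd5* and *mt-Nd6* face each other and overlap by 14 bases, and since the strand setting of the counting is not given in the sources used here, reads from RNA opposite to *mt-Nd6* cannot be told apart from its own.

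*mt-Nd4l* (ENSMUSG00000065947, chrM:9877-10173) was the exception in level. It was at 28.1 FPKM in KO and 35.0 FPKM in WT, and its ratio of 0.803 was close to that of *mt-Nd3*. In mammals it is carried with *mt-Nd4* on a single mRNA, but in the deposited table *mt-Nd4* stood 557 times as high in KO and 510 times as high in WT. The other pair of genes carried on a single mRNA, *mt-Atp8* and *mt-Atp6*, differed far less, by 1.58 times in KO and 1.46 times in WT.

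Complex III has a single mitochondrial subunit, cytochrome b. Its mRNA *mt-Cytb* (ENSMUSG00000064370, chrM:14145-15288) was at 10585 FPKM in KO and 11972 FPKM in WT, a ratio of 0.884. Complex V has subunits from *mt-Atp8* (ENSMUSG00000064356, chrM:7766-7969) and *mt-Atp6* (ENSMUSG00000064357, chrM:7927-8607), which form part of the proton channel and its support. *mt-Atp8* had the highest level of all mRNAs, 47761 FPKM in KO and 53103 FPKM in WT. *mt-Atp6* came next with 30240 FPKM in KO and 36355 FPKM in WT. Both were lower in KO, with ratios of 0.899 for *mt-Atp8* and 0.832 for *mt-Atp6*, although they share an mRNA. The *mt-Atp8* model has 204 bases, the fewest of the mRNA models.

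Complex IV, cytochrome c oxidase, which reduces oxygen, has its catalytic core encoded by 3 mitochondrial genes. *mt-Co2*, the subunit that receives electrons from cytochrome c (ENSMUSG00000064354, chrM:7013-7696), was at 19034 FPKM in KO and 22435 FPKM in WT. *mt-Co3* (ENSMUSG00000064358, chrM:8607-9390) was at 15049 FPKM in KO and 17746 FPKM in WT. Their ratios were equal at 0.848. The catalytic subunit *mt-Co1* (ENSMUSG00000064351, chrM:5328-6872) went apart from these, since it was listed at 0 in KO and at 24564 FPKM in WT, where only *mt-Atp8* and *mt-Atp6* were higher. The same values stand in the deposited isoform table, in which every member has 1 isoform. A value of 0 in a table without counts can be an estimate that failed, and whether the KO library held reads of *mt-Co1* was not tested. Among 522 other gene models of at least 200 bases that averaged 100 FPKM or more, 0 were listed at 0 in either library. With *mt-Co1* included the summed mRNA level was 183096 FPKM in KO and 236272 FPKM in WT, a ratio of 0.775 that rests on this single listed 0.

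The order of the mRNA levels was nearly the same in both genotypes. Without *mt-Co1* it ran from *mt-Atp8* over *mt-Atp6*, *mt-Co2*, *mt-Nd4*, *mt-Co3*, *mt-Nd1*, *mt-Nd2* and *mt-Cytb* in both libraries. *mt-Nd6* came before *mt-Nd3* in KO and after it in WT, and *mt-Nd5* and *mt-Nd4l* closed the order in both. Spearman's rho between the KO and WT levels was 0.993 over the 12 mRNAs, which share their libraries and much of their transcription. Between the lengths and levels of the 12 mRNA models rho was -0.0979 in KO and -0.105 in WT. Which neighbours in this order differ beyond the spread between animals cannot be said with 1 library per genotype. The mRNA models also shared features that the choice of members did not use. Their content of G and C bases ran from 31.9% in *mt-Atp8* to 41.1% in *mt-Nd4l*. An ATG start codon was annotated for 9 of the 13, with GTG in *mt-Nd1* and ATA, ATT or ATC in *mt-Nd2*, *mt-Nd3* and *mt-Nd5*. A full stop codon was annotated in 10, whereas *mt-Co3*, *mt-Nd4* and *mt-Cytb* end in a single T that the poly(A) tail completes to TAA.

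The tRNA models, of 59 to 75 bases, were almost all listed at 0. Of the 22, 21 were at 0 in both libraries, among them *mt-Tv* and *mt-Tl1*, whose sequences are given with that of *mt-Tf*. The other 19 were *mt-Ti*, *mt-Tq*, *mt-Tm*, *mt-Tw*, *mt-Ta*, *mt-Tn*, *mt-Tc*, *mt-Ty*, *mt-Ts1*, *mt-Td*, *mt-Tk*, *mt-Tg*, *mt-Tr*, *mt-Th*, *mt-Ts2*, *mt-Tl2*, *mt-Te*, *mt-Tt* and *mt-Tp*. The exception was the phenylalanine tRNA *mt-Tf* (ENSMUSG00000064336), which was listed at 32404 FPKM in KO and at 0 in WT. That value would place it above every mitochondrial mRNA except *mt-Atp8* in the KO library, and as WT was listed at 0 no fold is given. The like was seen in other short gene models. Of 1751 other models of at most 100 bases, 11 were above 0 in either library, and 7 of these were listed at 0 in exactly 1 library, such as *Mir129-1* at 20562 FPKM in KO and 0 in WT and *Mir540* at 0 in KO and 4723 FPKM in WT. The part of model length in these values was not tested, and they are not read as levels of mature tRNA.

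**Figure D2:**
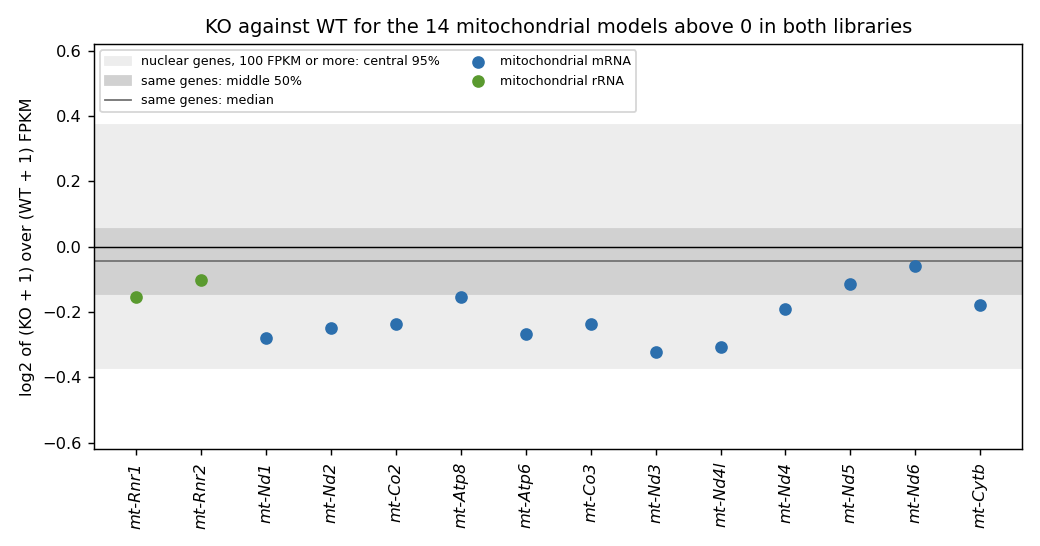
Log2 of KO over WT, with 1 FPKM added to both values, for the 14 mitochondrial models above 0 in both libraries, in genome order (blue: mRNA, green: rRNA). The grey bands show the middle 50% and the central 95% of 532 nuclear genes averaging 100 FPKM or more, and all 14 points lie below 0 and inside the wider band.

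The 14 members above 0 in both libraries were set beside nuclear genes of high level, without *mt-Co1* and *mt-Tf*. On the log2 scale the 12 mRNAs had a median of -0.24, from -0.32 for *mt-Nd3* to -0.06 for *mt-Nd6*, and the rRNAs were at -0.16 and -0.10. The median was 0.02 over 13042 genes and -0.05 over 532 nuclear genes averaging 100 FPKM or more. The central 95% of these nuclear genes lay between -0.37 and 0.37 and held all 14 members. The middle 50% lay between -0.15 and 0.06 and held 3 members (*mt-Rnr2*, *mt-Nd5* and *mt-Nd6*), and the other 11 lay below it. The share of genes with a lower value in KO was 45.6% over all 12960 genes above 0 in both libraries and 61.5% over the 532 nuclear genes, against 14 of 14 members. The members come from a few shared precursor RNAs of each library, so they are not separate observations of the genotype.

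Among the 12 mitochondrial mRNAs Spearman's rho between length and the ratio of KO over WT was 0.287, over models that share their libraries. In the nuclear genome the ratios differed between bins of length. Nuclear genes whose longest annotated transcript has 500 to 1000 bases had a median log2 ratio of -0.10, those with 1000 to 2000 bases -0.07, those with 2000 to 4000 bases 0.00 and longer ones 0.08. In the 106 genes of 200 to 500 bases the median was 0.02. The share of nuclear genes with a lower value in KO was 66.2% at 500 to 1000 bases, 64.7% at 1000 to 2000 bases and 49.8% at 2000 to 4000 bases. All but 3 of the 13 mitochondrial mRNA models have between 500 and 2000 bases. Within those limits of length 9 mRNAs were above 0 in both libraries, and *mt-Nd6* was the only one of them that lay above the median of its own length bin. The part of transcript length in the lower mitochondrial values was not tested.

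**Figure D3:**
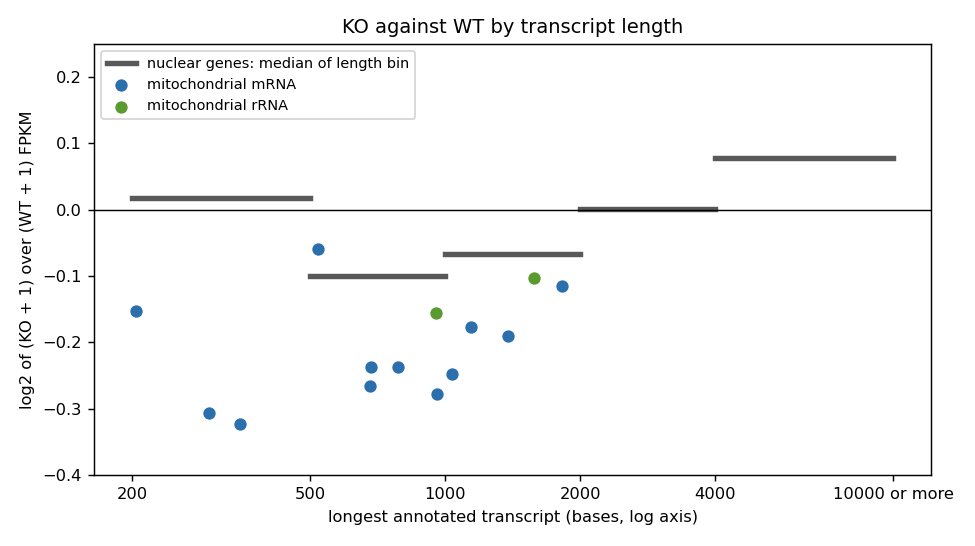
Log2 of KO over WT against the length of the longest annotated transcript, on a log axis, with a point for each mitochondrial mRNA (blue) and rRNA (green) above 0 in both libraries and a grey bar for the median of the nuclear genes in each length bin. All mitochondrial models except *mt-Nd6* lie below the bar of their bin, and the bars rise from -0.10 at 500 to 1000 bases to 0.08 above 4000 bases.

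Nuclear genes for complexes I, III, IV and V were mostly lower in KO too, with medians closer to 0 than that of the mitochondrial mRNAs. A lower value in KO was also the more common case in other nuclear genes of high level or similar length. It was found in 61.5% of 532 nuclear genes averaging 100 FPKM or more. Among nuclear genes it was found in 66.2% at 500 to 1000 bases and 64.7% at 1000 to 2000 bases. Of 36 nuclear subunits of complex I, 30 were lower in KO and 6 higher, with a median of -0.13. *Ndufc1* was lowest with 14.6 FPKM in KO and 19.5 FPKM in WT, and *Ndufv3*, of the NADH-oxidising part, was highest with 50.3 FPKM in KO and 46.7 FPKM in WT. Of 9 genes listed for complex III 8 were lower in KO (median -0.16), and of 12 listed for complex IV 10 were lower (median -0.14). Of 17 genes listed for complex V, not all of them for subunits, 15 were lower (median -0.07). *Cox5a*, at 69.6 FPKM in KO and 87.1 FPKM in WT, was the lowest of complex IV. Complex II, which has no mitochondrially encoded subunit, had 3 of 4 genes higher in KO and a median of 0.03, with *Sdha* at 140 FPKM in KO and 133 FPKM in WT. Not a single one of the genes of these 5 lists passed a 2-fold difference. Of 12960 genes above 0 in both libraries, 0.193% were higher and 0.255% lower by that much. At such shares a 0 in lists of this size says little about their genes. The median transcript length was 1026 bases for nuclear complex I genes, 815 for complex IV and 2066 for complex II. In a list of cytosolic ribosomal protein genes, which was added after the first results and whose median length was 1106 bases, 77 of 77 were lower in KO with a median of -0.16.

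The lists of nuclear genes that serve mitochondrial gene expression held 0 genes past a 2-fold difference. Here too this 0 stands beside 0.193% of 12960 genes higher and 0.255% lower, and says little about the lists. Their counts of genes lower in KO stand beside 45.6% of all genes and 61.5% of high nuclear genes with a lower value in KO. Lowest and highest members are those by the log2 ratio with 1 FPKM added, an order that can differ without it. In the list for transcription and replication 10 of 15 genes were lower in KO (median -0.11). Its lowest members were *Polrmt*, the mitochondrial RNA polymerase, with 7.41 FPKM in KO and 10.8 FPKM in WT, and *Tfam*, which packs the DNA and starts transcription, with 18.4 FPKM in KO and 22.4 FPKM in WT. *Ssbp1*, the single-strand binding protein, was highest with 14.3 FPKM in KO and 12.2 FPKM in WT. *Polg2* came next with 1.31 FPKM in KO and 1.01 FPKM in WT. Its ratio without the added FPKM, 1.29, was above the 1.17 of *Ssbp1*. In the list for RNA processing 13 of 27 genes were lower, with a median of 0.00. *Rg9mtd1*, a part of the enzyme that cuts the 5′ ends of tRNAs, was at 6.52 FPKM in KO and 5.90 FPKM in WT, and *Hsd17b10*, of the same enzyme, was at 11.3 FPKM in KO and 13.3 FPKM in WT. Of the aminoacyl-tRNA synthetases 9 of 19 were lower (median 0.01), with *Vars2* highest at 5.16 FPKM in KO and 3.59 FPKM in WT. *Hars2* was lowest by log2 ratio at 16.1 FPKM in KO and 19.2 FPKM in WT. Without the added FPKM *Cars2* was lower, with a ratio of 0.832 against 0.837 for *Hars2*. The list for the mitochondrial ribosome took genes by symbol, starting with Mrpl or Mrps and a digit, so not each need encode a ribosomal protein. Of its genes 61 of 76 were lower (median -0.09), with *Mrpl44* among the lowest at 9.11 FPKM in KO and 12.6 FPKM in WT. *Mrps36* was highest at 19.3 FPKM in KO and 14.7 FPKM in WT. In the list for biogenesis and mass 7 of 17 were lower (median 0.02). List medians of 0.00 to 0.02 lie near the median of all genes, 0.02, so their sign depends on the scaling. The highest members of the list for biogenesis and mass by log2 ratio were *Ppargc1a* and its partner *Esrra*. *Ppargc1a*, a coactivator that drives mitochondrial biogenesis, was at 19.4 FPKM in KO and 12.7 FPKM in WT. *Esrra* was at 11.8 FPKM in KO and 8.12 FPKM in WT. Without the added FPKM another gene of the list, of lower level, had a ratio above the 1.45 of *Esrra*.

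**Figure D4:**
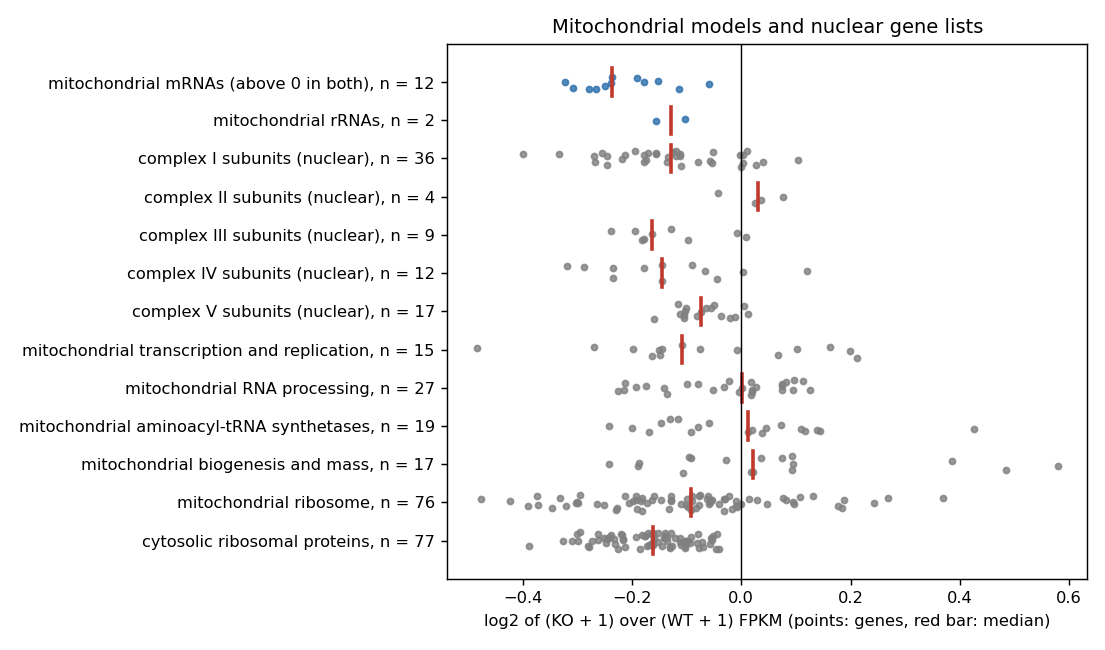
Log2 of KO over WT for the mitochondrial mRNAs and rRNAs above 0 in both libraries (blue points) and for the genes of each nuclear list (grey points), with the median of each as a red bar. The median of the mitochondrial mRNAs is -0.24, those of the nuclear genes listed for complexes I, III, IV and V lie between -0.16 and -0.07, and that of complex II is 0.03.

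Several members have near-identical copies in the nuclear genome, which limits how their reads can be placed. The sequence of each member was taken in all its windows of 50 bases and looked up in the annotated transcripts of the nuclear genome. Of the 15 mRNA and rRNA models 10 shared at least 1 window, and 0 of the 22 tRNA models did. For 5 members nearly all windows were shared, namely *mt-Co2* (100%), *mt-Co3* (99.9%), *mt-Atp6* (99.5%), *mt-Nd4l* (98.8%) and *mt-Nd3* (98.0%). Nearly all of these windows lie in a row of annotated pseudogenes on chromosome 1, from 24611535 to 24616197. It also holds 62.2% of the windows of *mt-Nd4* and, together with copies on chromosomes 2 and 11, 51.1% of those of *mt-Co1*. Any copies on a further chromosome were left out of the copies named, while the shares count all annotated nuclear transcripts. *mt-Nd1*, *mt-Atp8*, *mt-Nd6*, *mt-Cytb* and *mt-Rnr1* shared none with an annotated nuclear transcript. Sequence outside annotated transcripts was not searched, so a share of 0 does not mean that a member or tRNA has no nuclear copy. In the row on chromosome 1, for one, the bases between the copies of *mt-Atp6* (to 24614651) and *mt-Co2* (from 24614885) were not searched.

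**Figure D5:**
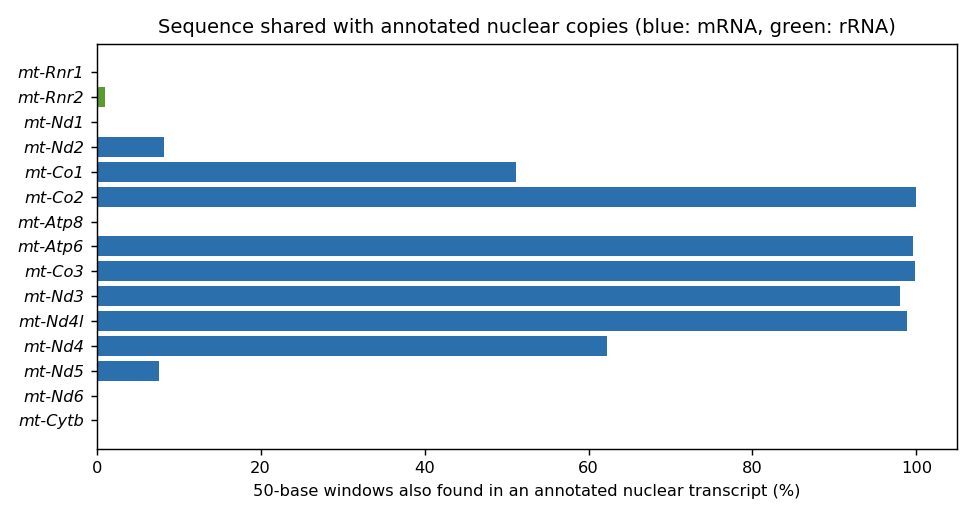
Percent of the 50-base windows of each mitochondrial mRNA (blue) and rRNA (green) that were also found in an annotated nuclear transcript, in genome order. The bars of *mt-Co2*, *mt-Atp6*, *mt-Co3*, *mt-Nd3* and *mt-Nd4l* run from 98.0% to 100%, and 5 models are at 0.

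*mt-Nd4l*, the member with the lowest level, has its copy *Gm10222* (ENSMUSG00000067736, chr1:24612407-24612700, minus strand). Of the 7 copies on chromosome 1 this is the single one that was matched by its identifier in the gene table. The 294 bases of *Gm10222* have 0 differences from the first 294 of the 297 bases of *mt-Nd4l*, so a read inside them fits both places equally well. The first 60 bases of each are shown to make this plain, with the start codon in capitals (chrM:9877-9936 and chr1:24612641-24612700).
*mt-Nd4l*: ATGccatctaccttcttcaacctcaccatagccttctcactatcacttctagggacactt
*Gm10222*: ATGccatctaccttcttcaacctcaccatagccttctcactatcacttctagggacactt
*Gm10222* was at 14.9 FPKM in KO and 15.5 FPKM in WT, beside 28.1 FPKM in KO and 35.0 FPKM in WT for *mt-Nd4l*. The levels of these models are therefore uncertain, and how the counting divided shared reads is not given in the sources used here. The other members with nearly all windows shared stood at 6908 FPKM or more in KO and at 8643 FPKM or more in WT. On chromosome 2 the copies *Gm13339*, *Gm13340* and *Gm13341*, of *mt-Nd2*, *mt-Co1* and *mt-Co2*, were at 1.24, 1.24 and 4.44 FPKM in KO and at 1.91, 1.89 and 6.37 FPKM in WT. The *mt-Co1* copy *Gm13340* was thus listed above 0 in the KO library in which *mt-Co1* itself was listed at 0. The ratio of KO over WT ran from 0.799 to 0.848 for the 5 members with nearly all windows shared and from 0.825 to 0.960 for the other 9 members above 0 in both libraries.

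The share of the mitochondrial models in all FPKM depended on what was summed. Over all gene models it was 19.0% in KO and 18.8% in WT, where the listed value of *mt-Tf* in KO and that of *mt-Co1* in WT enter a single library each. Without tRNA models and without models at 0 in either library it was 17.7% in KO and 18.4% in WT. Each FPKM was then multiplied by the length of the gene's longest annotated transcript, as a rough stand-in for a share of fragments. With *mt-Co1* and all models under 200 bases left out of both libraries, this share was 10.5% in KO and 12.1% in WT. It was 0.864 times as high in KO as in WT. For genes whose expressed transcripts are shorter than the longest one, the product is too large. All 37 members have 1 isoform, so their share can come out too low in both libraries.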

How the data were processed

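Total RNA of cerebral cortex was sequenced as 1 KO and 1 WT library. Per the labels the authors used TopHat and Cufflinks (versions not given in the sources used here) with GRCm38, and a SureSelect strand-specific kit. The labels' extraction note covers cortex or hippocampus and names another kit than the paper. Whether poly(A) RNA was selected is not given in the sources used here. The deposited gene and isoform tables give FPKM as the authors made them. Their p-value, q-value and significance columns, and other sheets with the authors' ratios, gene lists and terms, were not used. No column of another sample was present.

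Log2 ratios were computed as KO + 1 over WT + 1 FPKM where the libraries averaged 1 FPKM or more, and 2-fold differences were counted. Folds are given without the added FPKM and not for values listed at 0. With 1 library per genotype no test was made. Annotation, lengths and sequences came from GENCODE M21, in which 35445 of 37303 identifiers were found. Ratios and depth steps (0.5% tolerance, values below 0.3 FPKM) were tested on simulated data. Python 3.11.15, numpy 2.4.6, pandas 2.3.3 and matplotlib 3.10.9 were used.

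Members and the 10 nuclear lists were chosen with earlier results of these data known. Of each list at most the 2 highest and the 2 lowest genes could be named, and all members are accounted for. Alternatives were pseudocounts of 0.1 and 10 FPKM, other filters, a rescaling by the median ratio and the isoform table. Other short models and the nuclear copies were named after their values were seen. A marker gene of the tissue check is not reported here.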

Additional observations from a re-analysis of the deposited data

How the results depend on the processing

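In all, 38 alternative values were computed for 9 results, and 36 kept within 1.5 times of the reported value, or within 0.1 for a median log2 ratio. Some alternatives had little or no room to move. The isoform table repeats the members' values, as all 37 have 1 isoform. The counts past 2-fold rest on *mt-Tf* and *mt-Co1*, each at 0 in a single library, which pseudocounts and filters on the mean left in place. The limit of 1.5 times is also wider than the mRNA ratio of 0.865, so a result can change direction within it. Sums of mRNAs and rRNAs and the share of FPKM were compared as the ratio of KO over WT, and the share itself moved further, to between 10.5% and 38.1% in KO and between 12.1% and 41.3% in WT, against 19.0% in KO and 18.8% in WT. When only models above 0 in both libraries were used, chosen after the data were seen, the count of members at least 2-fold higher in KO was 0 in place of 1 and that of members at least 2-fold lower was 0 in place of 1, because *mt-Tf* and *mt-Co1* drop out. The summed mRNA ratio of KO over WT was 0.763 after rescaling KO by the median ratio of all genes and 0.865 without *mt-Co1*, against 0.775 with it. The median log2 ratio of the mRNAs lay between -0.26 and -0.24 under all alternatives. All 14 members above 0 in both libraries lay below the median ratio of all genes, 1.02, but this had no room to move. Their ratios were already at 0.960 or less. The mitochondrial share of FPKM, relative to WT, turned from 1.01 over all models to 0.962 without tRNA models and models at 0, and to 0.722 with FPKM weighted by length over models of at least 200 bases, which keeps the listed 0 of *mt-Co1* in KO. The last value was 0.864 without *mt-Co1*. No tRNA model was above 0 in both libraries, so the summed tRNA level has no value under that alternative. No paired analysis was possible because each genotype has 1 library. Depth is unknown and replicates are lacking, so no interval is given for any value.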

Other observations

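The share of the mitochondrial genome in all FPKM differed with the models summed. With *mt-Co1* and all models under 200 bases left out, mitochondrial tRNA models included, the share was 38.1% in KO and 41.3% in WT, against 19.0% in KO and 18.8% in WT over all models. Several choices differ between these sums, and their separate parts were not tested.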
